A study of Mus musculus with 2 samples.

Results

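This account covers 9 of the 32883 genes in the feature table, the genes of purine nucleobase transport, purine salvage and adenosine signalling Slc43a3, Hprt1, Adk, Pnp, Ada, Entpd1, Nt5e, Adora2a and Adora2b. They were found by their symbols. The set was chosen by measured values of these same libraries, mainly the difference of Slc43a3 between them in lung endothelium. All levels and ratios below are therefore descriptions, and no member was tested.

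Cells take up purine bases and nucleosides through membrane carriers, rebuild nucleotides from them by salvage, and break down the excess towards uric acid. Slc43a3 is an equilibrative carrier of purine nucleobases. Outside the cell, Entpd1 (CD39) removes phosphates from ATP and ADP, Nt5e (CD73) converts the resulting AMP to adenosine, and adenosine acts on receptors such as Adora2a and Adora2b. In the lung this signal is best known for damping inflammation and leak of the vessel wall, and it ends when adenosine is carried into cells and phosphorylated by Adk or deaminated by Ada.

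Transcripts of single lung cells were counted in 2 droplet libraries (10x Genomics). The sham library came from wild-type lung after sham surgery, and the HIR library from wild-type lung 6 hours after hepatic ischemia-reperfusion, in which blood flow to the liver is stopped and restored. The series asks how lung immune cells differ after this injury of a distant organ. The labels name mouse lung cells, give no strain, age or number of animals, and list no agent other than the operation and the anaesthetic. Both feature tables carry only rat Ensembl identifiers, so gene symbols are read here as rat symbols. The files give no genome coordinates and no sequences are shown.

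The sham library held 10719 barcodes with a median of 3426 UMIs (unique molecular identifiers, the tags by which captured transcripts are counted), and the HIR library 9499 barcodes with a median of 3094. Filtering kept 8571 and 7921 cells, and 24 barcode sequences occurred in both libraries. Single cells were assigned to classes from marker genes, and the 21 classes with at least 50 cells in each library are compared, with 7541 sham and 7112 HIR cells in all. Each carries the suffix -like, apart from the 3 remainders named other endothelial, other stromal and other immune cells. These met a lineage but not the limits for their best-scoring class. The own markers of each named class were among its leading genes, such as Gpihbp1, Aplnr and Kit in general capillary endothelium-like cells and Ca4, Ednrb and Apln in aerocyte capillary endothelium-like cells. A level is given as CPM, the UMIs of a gene per 1000000 UMIs of all cells of the class. With 1 library per group the operation cannot be told apart from any other difference between the libraries, and all intervals are 95% intervals that cover counting error only.

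Slc43a3, the nucleobase carrier, was found mainly in alveolar fibroblast-like, endothelial, neutrophil-like and adventitial fibroblast-like cells. In alveolar fibroblast-like cells and the 5 endothelial classes it was 3.39 to 5.16 times as high in the HIR library as in the sham library. In general capillary endothelium-like cells (638 sham and 578 HIR cells) its level was 114 CPM (99.5 to 130) in sham and 539 CPM (504 to 575) in HIR, from 223 and 910 UMIs. The ratio was 4.73 (4.08 to 5.50), and 19 of the 5897 genes measured in that class had a ratio at least as high. Aerocyte capillary endothelium-like cells, the wide thin cells of the gas exchange surface, had 140 CPM (122 to 160) in sham and 476 CPM (440 to 514) in HIR, a ratio of 3.39 (2.91 to 3.97), which 23 of 5832 genes reached. In both capillary classes the intervals of the libraries lay far apart.

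The remaining endothelium followed the same direction. Arterial endothelium-like cells had 142 CPM in sham and 601 CPM in HIR (ratio 4.23, 3.41 to 5.29); 80.3% and 72.3% of them carried no more than the required 3 markers, and 65.5% and 53.3% lay in the general capillary cluster. In venous endothelium-like cells the level was lower in both libraries, at 58.8 and 243 CPM (ratio 4.13, 3.13 to 5.52). The venous class was made up differently in the libraries, since 109 of its 264 sham cells but 155 of its 230 HIR cells lay in the cluster led by Vwf, and most of the rest lay in the general capillary cluster. Within the Vwf cluster Slc43a3 was at 16.6 and 137 CPM, and within the general capillary cluster at 110 and 551 CPM. Other endothelial cells, led by the capillary genes Glp1r and Nostrin, had 89.4 and 461 CPM, a ratio of 5.16 (3.86 to 7.02).

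Among stromal cells the alveolar fibroblast-like class had the highest Slc43a3 level of any class in each library, at 207 CPM (186 to 229) in 353 sham cells and 838 CPM (764 to 918) in 125 HIR cells, a ratio of 4.05 (3.53 to 4.66). Its sham interval overlapped that of neutrophil-like cells. Adventitial fibroblast-like cells had 102 and 269 CPM (ratio 2.63, 2.23 to 3.09). That class also held 2 populations. In its cluster led by Ccl11 and Pi16 the level was 139 and 340 CPM, whereas in the cells of the cluster led by Krt76 and Wnt11 it was 4.73 and 16.2 CPM, from 3 and 4 UMIs. Other stromal cells, led by Krt76 and Wnt11 themselves, were at 8.73 and 36.9 CPM. Sham levels thus differed far more between stromal populations than the ratios did. Smooth muscle or myofibroblast-like cells had 3.67 and 10.4 CPM, from 10 and 20 UMIs (ratio 2.82, 1.26 to 6.76), and pericyte-like cells had 19.4 and 72.3 CPM from 9 and 14 UMIs.

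Markers of other lineages were read beside these values. All 13 endothelial markers together came to 228 CPM in sham and 272 CPM in HIR alveolar fibroblast-like cells, while general capillary endothelium-like cells had 21322 and 21097 CPM. In alveolar fibroblast-like cells without a single UMI of these markers Slc43a3 was at 219 and 758 CPM, and in such adventitial fibroblast-like cells at 60.4 and 171 CPM. The summed epithelial marker list was also higher in HIR, summing in general capillary endothelium-like cells to 78.7 and 189 CPM, in aerocyte capillary endothelium-like cells to 87.8 and 248 CPM and in alveolar fibroblast-like cells to 68.2 and 190 CPM, with a median of 0 such markers per cell. The immune markers summed to 131 and 195 CPM in general capillary endothelium-like, 96.1 and 152 CPM in aerocyte capillary endothelium-like, 162 and 274 CPM in other endothelial and 142 and 274 CPM in alveolar fibroblast-like cells. The erythroid markers summed to 1321 and 1508 CPM, 1172 and 1957 CPM, 1294 and 2031 CPM, and 684 and 504 CPM in these classes in turn. The part of these marker lists in the Slc43a3 values was not tested. Slc43a3 itself was at 27.2 and 34.6 CPM in alveolar type 2 epithelium-like cells, or 27.5 and 57.7 CPM with classes named from Leiden clusters, and had 2 and 0 UMIs in alveolar type 1 epithelium-like cells.

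A larger share of cells carried the transcript in HIR, also at 2 UMIs or more. After every cell was thinned to 1000 UMIs, 9.44% (7.26 to 12) of sham and 38.6% (34.6 to 42.7) of HIR general capillary endothelium-like cells had a Slc43a3 UMI, compared with 24.9% and 66.6% before thinning. In alveolar fibroblast-like cells the thinned shares were 17.2% (13.4 to 21.6) and 55.3% (46.1 to 64.3). Cells with at least 2 Slc43a3 UMIs made up 7.05% of sham and 40.5% of HIR general capillary endothelium-like cells, and 25.8% and 76.0% of alveolar fibroblast-like cells. T cell-like cells served as a class without the transcript: they had 1 and 4 Slc43a3 UMIs, and thinned shares of 0% (0 to 1.03) and 0.407% (0.0103 to 2.24), at median depths of 5694 and 5712 UMIs against 2703 and 2526 in general capillary endothelium-like cells. Other classes with few Slc43a3 UMIs were B cell-like cells with 2 and 9 (ratio 6.31, 1.31 to 60.0) and alveolar macrophage-like cells with 3 and 9. NK cell-like cells had 0 and 3, and alveolar type 1 epithelium-like cells 2 and 0. Whether such low counts enter the low levels of smooth muscle or myofibroblast-like and other stromal cells was not tested. Erythroid-like cells, too few in HIR to compare, had 2 Slc43a3 UMIs in 149 sham cells and 0 in 36 HIR cells.

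**Figure D1:**
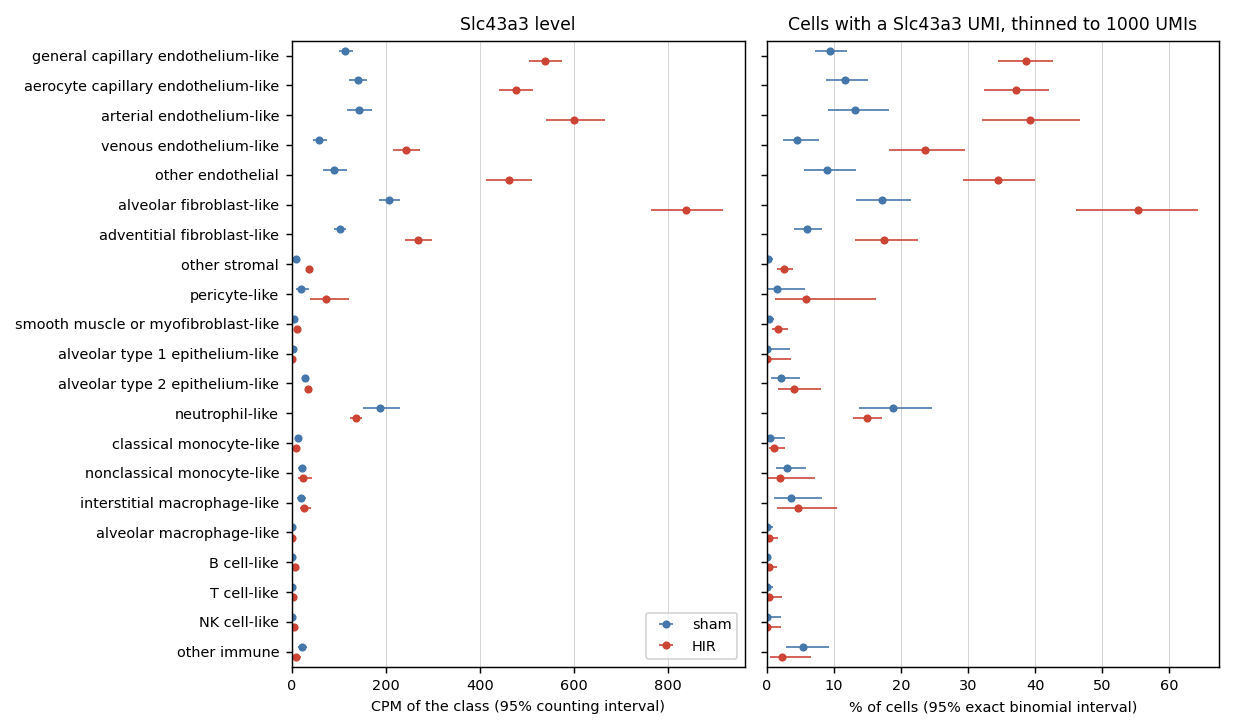
Slc43a3 in the 21 compared cell classes of the sham library (blue) and the HIR library (red), as CPM of the class with 95% counting intervals on the left and as the percentage of cells with a UMI after thinning to 1000 UMIs, with exact binomial intervals, on the right. The 5 endothelial classes and the alveolar and adventitial fibroblast-like classes lie higher in HIR, up to 838 CPM, while neutrophil-like cells stand at 188 and 137 CPM and most other immune and epithelial classes lie near 0.

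Neutrophil-like cells were the one immune class in which Slc43a3 passed 50 CPM, and their level was not higher in HIR. It was 188 CPM (152 to 231) in 262 sham cells and 137 CPM (124 to 150) in 1174 HIR cells, 1.38-fold lower (1.09 to 1.73). These cells formed 2 clusters in different proportions: 208 sham and 457 HIR cells lay in the cluster led by Ifit3 and Il1r2, and 54 and 714 in the one led by the granule genes Retnlg, Olfm4 and Camp. Within the first the level was 209 and 213 CPM, so the lower value did not hold there, and within the granule-gene cluster it was 157 and 109 CPM. TMM scaling, which sets the bulk of genes equal, moved all neutrophil log2 ratios by 0.39 where no CPM was added, and by less with 10 CPM added. Under it Slc43a3 stood at 165 and 156 CPM. Without added CPM, the same scaling moved log2 ratios by -0.19 in alveolar type 1 epithelium-like, 0.14 in classical monocyte-like and -0.12 in alveolar fibroblast-like cells. Elsewhere it moved them by at most 0.10 in either direction.

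Pnp, purine nucleoside phosphorylase, which releases the bases hypoxanthine and guanine from their nucleosides, was highest in endothelium and was lower there in HIR. Sham levels were 427 CPM in aerocyte capillary, 426 CPM in arterial, 426 CPM in general capillary, 380 CPM in other endothelial and 353 CPM in venous endothelium-like cells, and neighbours in this order had overlapping intervals. In general capillary endothelium-like cells Pnp was at 426 CPM (397 to 456) in sham and 272 CPM (248 to 298) in HIR, 1.56-fold lower (1.39 to 1.76). The value was 1.35-fold lower (1.19 to 1.52) in aerocyte capillary, 1.61-fold lower (1.33 to 1.96) in arterial, 1.5-fold lower (1.28 to 1.76) in venous and 1.68-fold lower (1.37 to 2.06) in other endothelial cells. The size of the arterial difference depended on the gate. It was 380 and 178 CPM with classes named from Leiden clusters, and 338 and 258 CPM with 1 more marker required. Thus Pnp and Slc43a3 stood on opposite sides of 1 in all 5 endothelial classes.

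Outside the endothelium Pnp was higher in HIR in some classes and lower in others. Classical monocyte-like cells had 120 CPM in sham and 161 CPM in HIR (1.34 times, 1.13 to 1.60), and alveolar macrophage-like cells 162 and 189 CPM (ratio 1.17, 1.07 to 1.27). Interstitial macrophage-like cells went from 223 to 178 CPM, 1.25-fold lower (1.01 to 1.55). In neutrophil-like cells Pnp was at 8.10 and 10.2 CPM from 4 and 31 UMIs, the lowest of all compared classes.

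Adk, adenosine kinase, which turns adenosine back into AMP, was lower in HIR in nearly all classes of the vessel wall and stroma. Aerocyte capillary endothelium-like cells had 156 CPM (137 to 177) in sham and 112 CPM (94.5 to 131) in HIR, 1.40-fold lower (1.14 to 1.72), and general capillary endothelium-like cells 129 and 91.8 CPM. Venous endothelium-like cells went from 74.7 to 38.5 CPM, 1.94-fold lower (1.33 to 2.87), and alveolar fibroblast-like cells from 137 to 83.7 CPM, 1.64-fold lower (1.19 to 2.29). Alveolar type 2 epithelium-like cells also had less, at 131 and 99.6 CPM. Pericyte-like cells went the other way, 62.4 and 108 CPM, with an interval of the ratio (0.942 to 3.15) that included 1, and so did the arterial interval. Alveolar macrophage-like cells had 75.8 and 77.4 CPM, a ratio of 1.02 (0.901 to 1.16), and neutrophil-like cells had 1 and 4 UMIs.

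Hprt1, which converts hypoxanthine and guanine to nucleotides, was found in every class and differed least. Over all kept cells it was at 97.9 CPM (95.1 to 101) in sham and 98.1 CPM (95.1 to 101) in HIR, a ratio of 1.0 (0.96 to 1.05). Alveolar macrophage-like cells had the highest level, 220 and 238 CPM, more than 2 times that of any other class in each library, and neutrophil-like cells the lowest, 20.2 and 22.3 CPM. General capillary endothelium-like cells had 83.8 and 59.8 CPM, 1.40-fold lower in HIR (1.09 to 1.82), and B cell-like cells 64.0 and 44.8 CPM, 1.43-fold lower (1.03 to 1.99). Classical monocyte-like cells had 53.5 and 72.8 CPM (ratio 1.36, 1.05 to 1.78) and alveolar type 2 epithelium-like cells 42.3 and 55.6 CPM (ratio 1.31, 1.02 to 1.69). The arterial value changed sides with the gate: 87.3 and 65.2 CPM as reported, with a ratio interval that included 1 (0.492 to 1.12), and 61.5 and 83.3 CPM with 1 more marker required.

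Ada, adenosine deaminase, was highest in NK cell-like cells, where the libraries did not differ beyond counting error (164 CPM, 138 to 194, and 148 CPM, 121 to 179). Everywhere else it was below 100 CPM. Venous endothelium-like cells had 66.3 CPM in sham and 26.2 CPM in HIR, 2.53-fold lower (1.63 to 4.01), and general capillary endothelium-like cells 41.4 and 26.0 CPM, 1.59-fold lower (1.09 to 2.35). Interstitial macrophage-like cells had 87.9 and 55.7 CPM, 1.58-fold lower (1.09 to 2.3). In B cell-like cells the level was 20.4 and 3.86 CPM, but 21 of the 37 sham UMIs lay in a single cell. The shares of cells with a UMI were 1.80% and 1.07%, and after thinning the shares were 0.455% and 0.641%, so no direction is read from them. Alveolar type 1 epithelium-like cells had no Ada UMI in either library, where 3 UMIs would stand for 4.69 and 7.37 CPM.

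**Figure D2:**
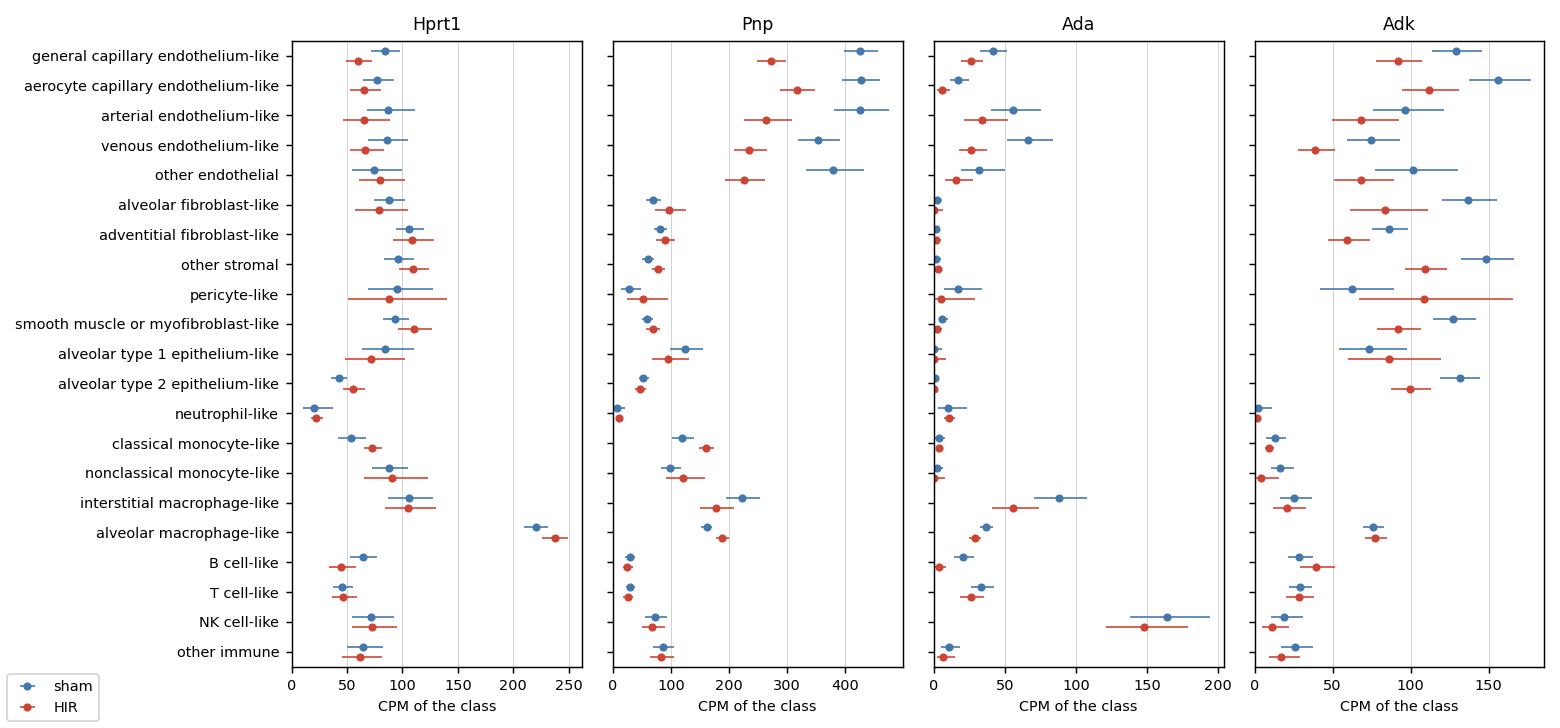
Levels of Hprt1, Pnp, Ada and Adk in CPM, with 95% counting intervals, in the 21 classes of the sham library (blue) and the HIR library (red). Pnp stands at 353 to 427 CPM in sham endothelium and lies lower there in HIR, Hprt1 is highest in alveolar macrophage-like cells at 220 and 238 CPM, and Ada in NK cell-like cells at 164 and 148 CPM.

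Entpd1, which starts the breakdown of extracellular ATP, had its highest level in neutrophil-like cells and was lower in HIR across endothelium. In neutrophil-like cells it was at 285 CPM (240 to 337) in sham and 181 CPM (166 to 197) in HIR, 1.58-fold lower (1.30 to 1.90). Within the 2 neutrophil clusters the difference was smaller: 385 and 319 CPM in the cluster led by Ifit3 and Il1r2 (ratio 0.829, 0.663 to 1.04), and 136 and 131 CPM in the granule-gene cluster (ratio 0.961, 0.647 to 1.48). Both within-cluster intervals included 1, and the cluster with the higher level held most of the sham cells.

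In aerocyte capillary endothelium-like cells Entpd1 was at 163 CPM (144 to 184) and 120 CPM (103 to 140), 1.35-fold lower in HIR (1.11 to 1.66). General capillary endothelium-like cells had 115 and 74.6 CPM (1.54-fold lower, 1.23 to 1.93), arterial endothelium-like cells 111 and 65.2 CPM, and other endothelial cells 106 and 62.7 CPM. The venous endothelium-like value, 110 and 61.2 CPM, was 1.80-fold lower (1.33 to 2.45) over the class, 105 and 50.6 CPM within its Vwf cluster, but 113 and 121 CPM within its general capillary cluster. Smooth muscle or myofibroblast-like cells had 125 and 96.9 CPM and interstitial macrophage-like cells 112 and 76.3 CPM. The farthest apart were classical monocyte-like cells with 39.2 and 14.2 CPM, 2.77-fold lower (1.88 to 4.07). There the difference was of similar size in both clusters the class fell into, 41.5 and 14.9 CPM in one and 35.3 and 13.9 CPM in the other. T cell-like cells had 4 and 5 UMIs and alveolar type 2 epithelium-like cells 2 and 0.

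Nt5e, which makes adenosine from AMP, was low throughout, and in capillary endothelium it was barely captured. General capillary endothelium-like cells had 9 and 5 UMIs and aerocyte capillary endothelium-like cells 5 and 3, that is 4.60 and 2.96 CPM and 3.16 and 2.22 CPM. NK cell-like cells had the highest level, 53.6 CPM (39.1 to 71.7) and 51.6 CPM (36.3 to 71.1), followed in sham by other stromal cells with 40.3 CPM, whose HIR level was 30.0 CPM. Alveolar macrophage-like cells, next in HIR, had 31.9 and 31.5 CPM, a ratio of 0.989 (0.813 to 1.20). The neutrophil-like level, 28.3 and 13.1 CPM from 14 and 40 UMIs, was 2.16-fold lower in HIR (1.09 to 4.06). Within the clusters it was 37.2 and 14.9 CPM and 15.2 and 12.5 CPM. Entpd1 and Nt5e were thus highest in different cells.

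Adora2a, a cyclic AMP-raising adenosine receptor, was higher in HIR in monocytes. Nonclassical monocyte-like cells, the monocytes that crawl along vessel walls, had the highest level, 167 CPM (146 to 190) in sham and 273 CPM (227 to 326) in HIR, 1.64 times as much (1.31 to 2.05). The classical monocyte-like class had 47.1 CPM (36.4 to 59.9) and 91.8 CPM (82.8 to 101), 1.95 times as much (1.5 to 2.57). That class shared a cluster with the nonclassical cells in part, and both parts had the same direction, with 140 and 273 CPM in the shared cluster and 25.6 and 69.0 CPM in the cluster led by Fcnb and Vcan. The thinned share of classical monocyte-like cells with a UMI was 6.37% (3.44 to 10.7) and 11.4% (8.59 to 14.9), and these intervals overlapped.

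T cell-like cells had less Adora2a, 11.8 and 23.0 CPM from 26 and 35 UMIs (ratio 1.94, 1.14 to 3.36). NK cell-like cells had 71.4 and 90.6 CPM and arterial endothelium-like cells 73.0 and 81.5 CPM, both with ratio intervals that included 1. The arterial value was 56.6 and 33.1 CPM within the general capillary cluster but 104 and 133 CPM within the cluster led by Esm1. Both of these within-cluster intervals also included 1. General capillary endothelium-like cells were lower in HIR, 41.4 and 28.4 CPM, 1.46-fold (1.01 to 2.13). No UMI was found in alveolar fibroblast-like, pericyte-like or alveolar epithelium-like cells of either library. For alveolar type 2 epithelium-like cells, at median depths of 13467 and 13474 UMIs, 3 UMIs would stand for 0.961 and 1.28 CPM.

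Adora2b, the lower-affinity adenosine receptor of the lung epithelium, was measured in alveolar type 2 epithelium-like cells alone, the only class that reached 20 CPM. It had 27.6 CPM (22.0 to 34.0) there in sham and 32.5 CPM (25.6 to 40.7) in HIR, a ratio of 1.18 (0.855 to 1.62). NK cell-like cells had 11.9 and 19.5 CPM from 10 and 14 UMIs. General capillary endothelium-like cells had 0 and 1 UMI. Of the receptors outside the 9 members, Adora1 reached at most 2.57 CPM in a compared class, and Adora3 had no UMI in the kept cells.

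**Figure D3:**
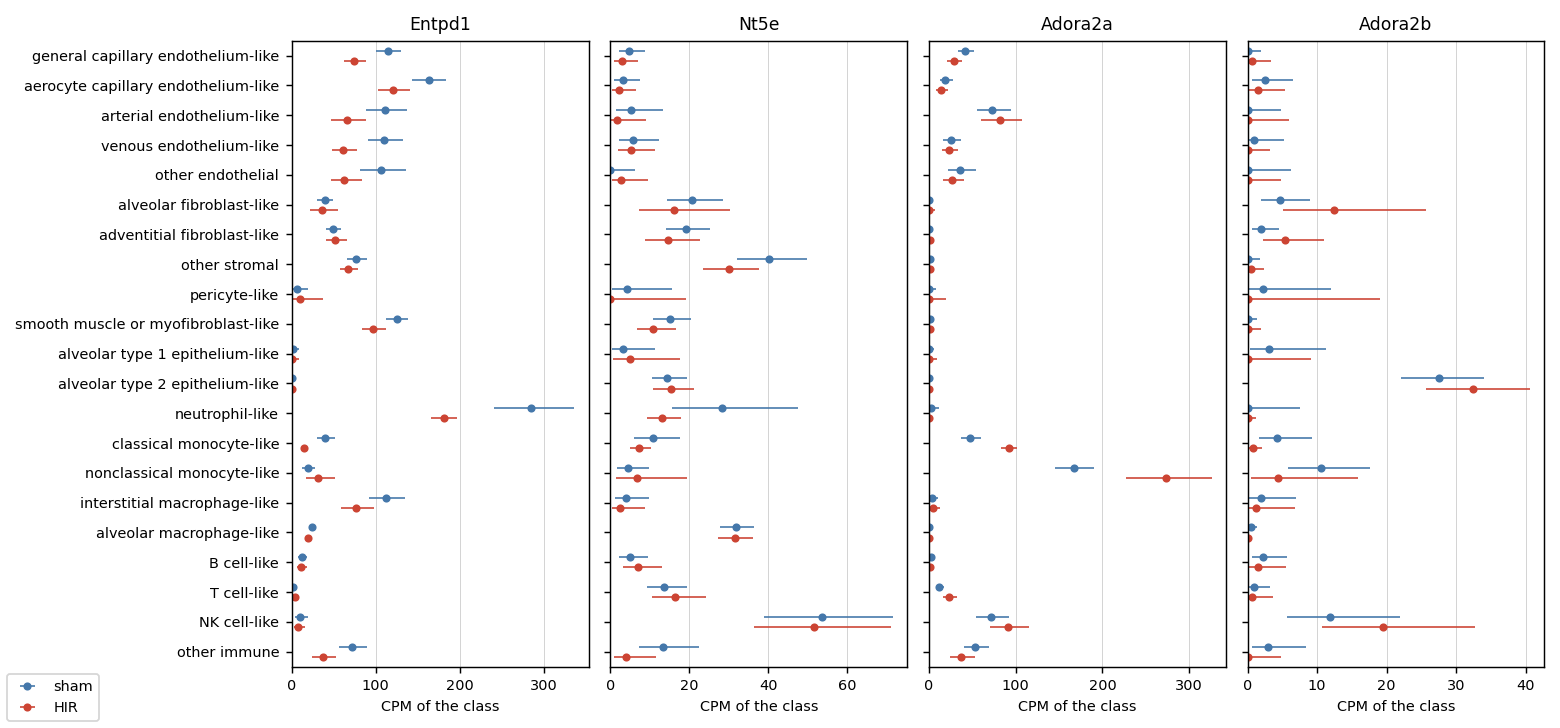
Levels of the enzymes Entpd1 and Nt5e and the receptors Adora2a and Adora2b in CPM, with 95% counting intervals, in the 21 classes of the sham library (blue) and the HIR library (red). Entpd1 is highest in neutrophil-like cells at 285 and 181 CPM, Nt5e in NK cell-like cells at 53.6 and 51.6 CPM, Adora2a in nonclassical monocyte-like cells at 167 and 273 CPM, and Adora2b in alveolar type 2 epithelium-like cells at 27.6 and 32.5 CPM.

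Read class by class, 111 pairs of a member and a class had at least 20 CPM in either library and 20 UMIs over both, and 15 of them were over 2-fold apart. Of these, 9 were higher in HIR, and all 9 were Slc43a3. The 6 lower ones were Ada in 3 classes, Entpd1 and Nt5e in 1 class each, and Slc43a3 in other immune cells from 22 and 7 UMIs. Without the cell that held the most UMIs of the gene in each library, an alternative added after the data were seen, 11 pairs were over 2-fold apart. Ada in B cell-like cells, Slc43a3 in other immune cells and Slc43a3 in pericyte-like cells then missed the limits on level or UMIs. Ada in other endothelial cells (28.7 and 14.4 CPM) and Nt5e in neutrophil-like cells (24.5 and 12.8 CPM) were then less than 2-fold apart, and Adora2a in classical monocyte-like cells (44.4 and 90.5 CPM) more. Since Slc43a3 was chosen for its difference in endothelium, its counts there are set beside the share of all measured genes over 2-fold apart in either direction without further reading. Slc43a3 was the 1 member over 2-fold higher of 7 measured in general capillary endothelium-like cells, where 3.85% of all measured genes were over 2-fold apart, of 5 in aerocyte capillary endothelium-like cells (3.36% of all genes) and of 7 in arterial endothelium-like cells (7.90%). In venous endothelium-like (6.38%) and other endothelial cells (8.37%) Slc43a3 was over 2-fold higher and Ada over 2-fold lower of 7 measured. Slc43a3 was again the 1 member over 2-fold higher in alveolar fibroblast-like (12.3%), adventitial fibroblast-like (6.89%), other stromal (4.88%) and pericyte-like cells (10.8%).

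In immune cells 4 classes held a member over 2-fold apart. These were Entpd1 in classical monocyte-like cells (12.1% of all genes), Nt5e in neutrophil-like cells (21.0%), Ada in B cell-like cells (2.29%) and Slc43a3 in other immune cells (7.5%), each 1 of 4 to 6 measured. All 4 levels were lower in HIR, but that of Ada in B cell-like cells rests on the single sham cell given above. Other immune cells were also made up differently in the libraries. Their largest part lay in clusters named neutrophil in sham (28.5% of 274 cells) and interstitial macrophage in HIR (28.0% of 157 cells). The part of this make-up in their values was not tested. In the other 8 classes no measured member was over 2-fold apart. The shares of all genes in these were 8.13% in NK cell-like, 1.88% in T cell-like, 0.662% in alveolar macrophage-like, 4.99% in interstitial macrophage-like, 15.6% in nonclassical monocyte-like, 10.3% in alveolar type 1 epithelium-like, 2.67% in alveolar type 2 epithelium-like and 3.17% in smooth muscle or myofibroblast-like cells. In general capillary endothelium-like cells 6 of 7 measured members were lower in HIR by any amount, with a median log2 ratio of -0.45 (10 CPM added) against 0.00 over all genes measured there. The share of all genes lower by any amount was not counted. Venous endothelium-like cells also had 6 of 7 lower (median -0.57, against -0.03 over all genes). Other immune cells had 6 of 6 lower (-0.42, against 0.05), in a class made up differently in the libraries as given above. In nonclassical monocyte-like cells all 5 measured members were higher (0.28, against -0.003 over all genes). Only the ratio interval of Adora2a left out 1 there, and those of Slc43a3, Hprt1, Pnp and Entpd1 included it. Slc43a3 and Hprt1 changed sides under alternatives, with log2 ratios from -0.34 to 0.35 and from -0.21 to 0.14. The share of all genes higher by any amount was not counted either. Members went both ways in every other compared class.

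**Figure D4:**
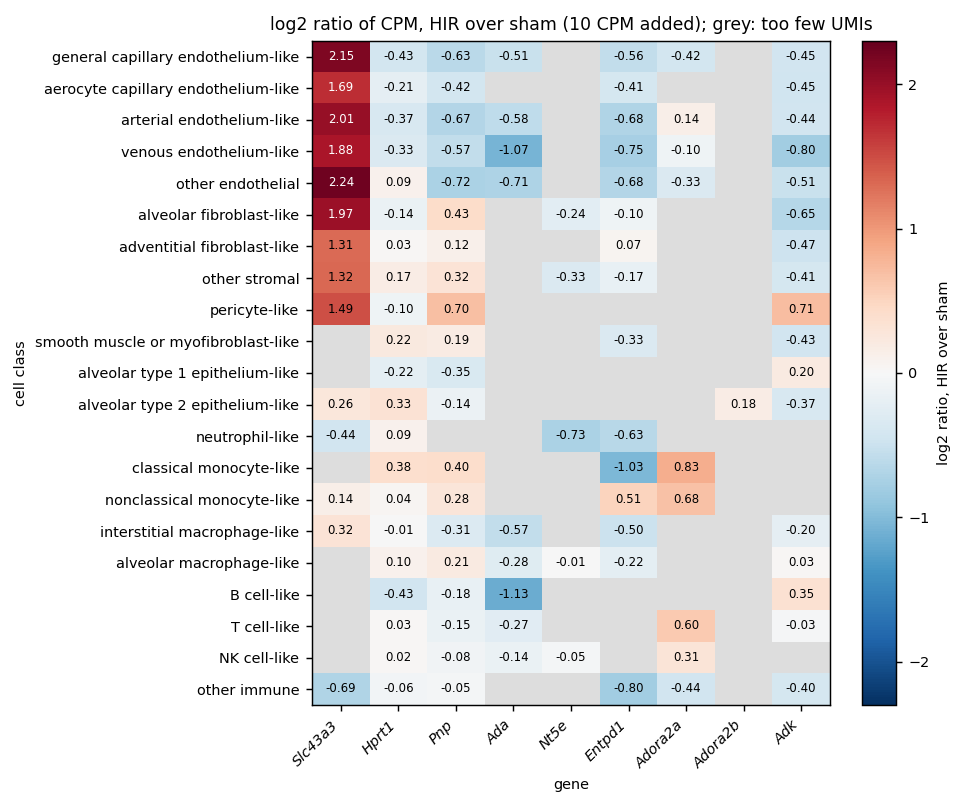
Log2 ratio of CPM, HIR over sham with 10 CPM added to both, for each of the 9 genes in each of the 21 classes, with red for higher and blue for lower in HIR and grey where a gene missed 20 CPM or 20 UMIs. Slc43a3 stands at 1.69 to 2.24 in the 5 endothelial classes, in which Pnp, Entpd1 and Adk are all below 0.

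The other genes of purine metabolism and purinergic signalling, 53 in 7 groups of transport, salvage, breakdown, ectonucleotidases, adenosine receptors, purinergic receptors and de novo synthesis, were read in the same way. In general capillary endothelium-like cells 18 of them were measured, of which 2 were over 2-fold higher and 3 over 2-fold lower. The higher ones were Xdh, xanthine oxidoreductase, the enzyme that forms uric acid, with 36.8 CPM in sham and 210 CPM in HIR (ratio 5.71, 4.42 to 7.46), and Slc28a2, a sodium-coupled purine nucleoside carrier, with 12.3 and 59.2 CPM (ratio 4.82, 3.07 to 7.88). Among the lower ones, the ATP-gated channel P2rx4 had 96.6 and 42.0 CPM and Prps2, which makes the ribose donor of purine synthesis, 57.3 and 24.9 CPM. All 7 measured genes of de novo synthesis were lower by any amount, with a median log2 ratio of -0.22, but only 1 of their intervals left out 1. This was not particular to the class. NK cell-like cells had 10 of 10 lower (median -0.33) and other endothelial cells 6 of 7 (-0.28), while T cell-like cells had 6 of 9 higher (0.09). The share of all genes lower by any amount was not counted. The equilibrative nucleoside carrier Slc29a1 had 713 and 327 CPM in venous endothelium-like cells, 2.18-fold lower in HIR, and 1366 and 980 CPM in the general capillary class, a ratio of 0.717 (0.674 to 0.763).

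Xdh was over 2-fold higher in HIR in all classes of endothelium and mesenchyme compared. The gene was also over 2-fold higher in interstitial macrophage-like cells (24.1 and 66.6 CPM, ratio 2.76, 1.69 to 4.62) and in alveolar type 2 epithelium-like cells. It was highest in HIR alveolar fibroblast-like cells, at 65.9 CPM in sham and 534 CPM in HIR (ratio 8.11, 6.52 to 10.1), and had 98.6 and 313 CPM in aerocyte capillary endothelium-like and 68.0 and 353 CPM in adventitial fibroblast-like cells. Smooth muscle or myofibroblast-like cells, which had few Slc43a3 UMIs, had 95.5 and 251 CPM of Xdh. Slc28a2 was over 2-fold higher in the endothelial classes other than venous, in neutrophil-like cells (66.8 and 165 CPM) and in interstitial macrophage-like cells (85.0 and 196 CPM), and had 3 and 2 UMIs in alveolar fibroblast-like cells, where Slc43a3 was highest. In NK cell-like cells Slc28a2 was over 2-fold lower in HIR, with a log2 ratio of -1.83.

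Gda, guanine deaminase, was higher in myeloid cells. Classical monocyte-like cells had 99.2 and 270 CPM (ratio 2.72, 2.28 to 3.27), nonclassical monocyte-like cells 210 and 423 CPM (ratio 2.02, 1.67 to 2.44) and neutrophil-like cells 12.1 and 99.9 CPM from 6 and 305 UMIs. NK cell-like and pericyte-like cells were over 2-fold higher as well, the latter from 4 and 10 UMIs. In neutrophil-like cells Alpl, a phosphatase that also acts on nucleotides, had 14.2 and 140 CPM, from 7 and 428 UMIs, and Ampd3, AMP deaminase, had 42.5 and 99.6 CPM, while Slc29a3 and P2rx4 were over 2-fold lower. In all, 6 of the 12 further genes measured in neutrophil-like cells were over 2-fold higher and 2 lower, in a class where 21.0% of all genes were over 2-fold apart and where the clusters differed in proportion as given above. Alpl in alveolar type 1 epithelium-like cells went the other way, from 189 to 68.8 CPM. Single further differences over 2-fold, among genes at 50 CPM with an interval leaving out 1, were Atic higher in classical monocyte-like, Nt5c higher in interstitial macrophage-like, Dpp4 lower in venous, Impdh1 lower in aerocyte capillary and Prps2 and P2rx4 lower in arterial endothelium-like cells, and P2rx4 lower in venous endothelium-like and nonclassical monocyte-like cells. Other pairs over 2-fold apart missed these limits. Among them, Atic was lower in other endothelial cells and Nt5c in alveolar fibroblast-like cells. P2rx4 was lower in alveolar fibroblast-like, adventitial fibroblast-like and other stromal cells.

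**Figure D5:**
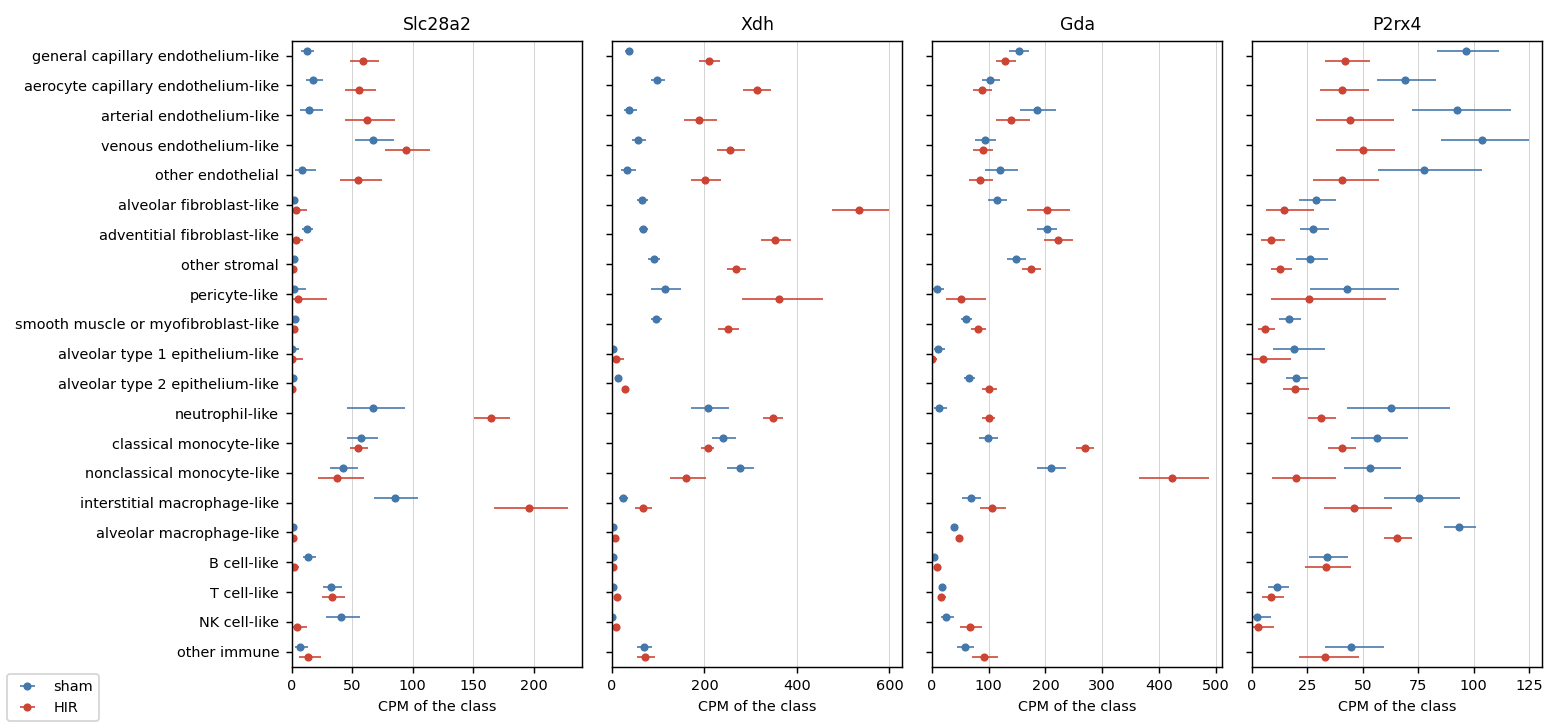
Levels of Slc28a2, Xdh, Gda and P2rx4 in CPM, with 95% counting intervals, in the 21 classes of the sham library (blue) and the HIR library (red). Xdh lies higher in HIR in the endothelial and stromal classes, up to 534 CPM, and in interstitial macrophage-like and alveolar type 2 epithelium-like cells. Slc28a2 lies higher in endothelial, neutrophil-like and interstitial macrophage-like cells and lower in NK cell-like cells. Gda lies higher in monocyte-like cells, while P2rx4 lies lower in endothelium.

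For each member that reached 100 CPM, the genes with the most similar levels were sought among 4223 genes over the 42 points of 21 classes and 2 libraries, as Pearson's r of log2 levels. The points share 2 libraries and differ in depth, and r is given as a description. The 3 most similar to Slc43a3 were Depp1 (r = 0.82), Cebpd (r = 0.81) and Kank3 (r = 0.78). Pnp was most similar to Tsg101 (r = 0.92), Aph1a (r = 0.88) and Ywhae (r = 0.88), and Adk to Hadhb, Abcd3 and Tmem42 (each r = 0.90). For Hprt1 these were Hexa, Ssna1 and Prdx1 (r from 0.80 to 0.81), for Entpd1 they were Hlx, Ier3 and Dennd5a (0.77 to 0.82), and for Adora2a they were Psme2, Gbp2 and Abi3 (0.77 to 0.78). Ada was least closely matched, by Atp2a3, Tpgs2 and 1 gene without a symbol (0.73 to 0.76).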

How the data were processed

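The deposited matrices hold a whole-number UMI count per gene and cell barcode. Per the submitters' processing notes Cell Ranger 6.0, STAR, Seurat 4.0 and mm10 were used. Per the file headers the matrices came from cellranger 5.0.0, and all features carry rat identifiers. Barcodes needed 200 genes and no more than 20% mitochondrial UMIs, and the highest Scrublet scores (scanpy 1.11.5) were left out as doublets at 0.8% per 1000 barcodes. This left out 867 sham and 672 HIR cells past the filter.

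A cell joined a lineage with at least 4 markers of it and of no other lineage. It then joined the class of that lineage with the highest marker score. If fewer than 3 markers of this class were detected or its score was not above 0, the cell went to the remainder of its lineage. No second-best class was tried. These limits were set after marker detection was seen, without the members. Cells with markers of several lineages (528 sham, 432 HIR) or none (214, 253) were left out. Leiden clusters (igraph 0.11.9, 2000 variable genes, 30 components, 15 neighbours, resolution 1) served as an alternative. Listed markers that the feature table lacks, Pecam1 among them, were not used, and Ca4, Adssl1 and Adss stood for Car4, Adss1 and Adss2.

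UMIs were summed per class and library. Ratios carry exact conditional 95% intervals, levels Poisson intervals and shares Clopper-Pearson intervals, and 10 CPM was added for log2 ratios. A gene was measured in a class at 20 CPM in either library and 20 UMIs over both. With 1 library per group no test was made. The members, lists and naming rule were chosen with earlier results of these data known. The rule takes all members, the 3 most similar genes of each member reaching 100 CPM, and pathway genes at 50 CPM, over 2-fold apart and with an interval leaving out 1; Slc29a1 in general capillary endothelium-like cells, Adora1 and Adora3 were added after their values were seen. Alternatives covered the gate, filters, doublets, totals, TMM (edgeR 4.0.16), mean CPM per cell, 1 CPM added and thinning.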

Additional observations from a re-analysis of the deposited data

Results flagged for a closer look

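Slc43a3, Hprt1 and Pnp each had classes whose intervals lay on opposite sides of 1. Among classes at 50 CPM or more in either library, only the farthest class on each side is given here. Slc43a3 had a ratio of 5.16 (HIR over sham) in other endothelial cells and 0.725 in neutrophil-like cells, where the value within the cluster led by Ifit3 and Il1r2 was 1.02. Hprt1 had a ratio of 1.36 in classical monocyte-like cells and 0.701 in B cell-like cells. Pnp had a ratio of 1.34 in classical monocyte-like cells and 0.595 in other endothelial cells. With 1 library per group the difference between classes was not tested.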

How the results depend on the processing

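The 111 log2 ratios of members in classes gave 1137 values under the alternatives, of which 1121 moved by less than their counting interval, 14 by more, and 2 changed sides although the reported interval left out 1. Among the others, 44 values changed sides, for 22 ratios whose reported interval included 1, among them the Hprt1 log2 ratio of arterial endothelium-like cells, -0.37 as reported and 0.38 with 1 more marker required. The 2 whose interval left out 1 came from an alternative added after the data were seen, values within Leiden clusters: the Slc43a3 log2 ratio of neutrophil-like cells was 0.023 within the cluster led by Ifit3 and Il1r2, and the Entpd1 log2 ratio of venous endothelium-like cells was 0.096 within the general capillary cluster. Slc43a3 in general capillary endothelium-like cells lay between 2.10 and 2.28 and in aerocyte capillary endothelium-like cells between 1.61 and 1.76 over their alternatives. Without the filter on low values, pairs of a member and a class over 2-fold apart numbered 48 in place of 15, and genes over 2-fold apart in general capillary endothelium-like cells 4171 in place of 227, as genes with few UMIs then enter. Without the cell with the most UMIs of the gene in each library, 11 pairs were over 2-fold apart. Of the 111 differences in the share of cells with a UMI, 22 changed sign after thinning, none of them with reported intervals that lay apart. By more than their interval, 7 differences moved. For Slc43a3 these were general capillary (29.1 percentage points after thinning), other endothelial (25.5) and venous endothelium-like cells (19.0), each still higher in HIR. Depth limits members such as Nt5e, Adora2b, Ada and Adora2a, whose levels in most classes rest on under 100 UMIs in each library. No paired analysis was possible because each group has 1 library.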
